A study of Mus musculus with 15 samples.

Results

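The 8 goblet cell genes examined here, Muc2, Fcgbp, Clca1, Tff3, Zg16, Agr2, Spink4 and Spdef, were taken from the table by gene symbol, and each symbol matched 1 of its 26844 genes. They were chosen as a group by name and not by a cut on a measured value, but with earlier results of these data known. The mice were C57BL/6 males, 13 to 15 weeks old, and RNA came from their distal jejunum, a stretch of small intestine. Wild-type mice (WT) were set against global knockouts of both Aster-B and Aster-C (KO), proteins that move cholesterol inward from the cell surface. WT control (4 libraries) and KO control (3 libraries) ate a diet with 0.08% cholesterol and no drug. WT ezetimibe (4 libraries) and KO ezetimibe (4 libraries) ate that same cholesterol diet with 0.01% ezetimibe, which blocks the intestinal cholesterol importer NPC1L1. All 4 groups therefore ate cholesterol. Because the deletion is in the whole body and the RNA is from a mixture of jejunum cells, a difference cannot be assigned to the epithelium. In such RNA fewer goblet cells and less RNA per goblet cell cannot be told apart.

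Goblet cells are the secretory cells that make intestinal mucus. They arise from progenitors that escape Notch signalling and express Atoh1, mature under transcription factors such as Spdef, and store a gel-forming mucin in granules with smaller proteins that are released with it. The genes fall into 3 roles. MUC2 is the gel-forming mucin, and FCGBP and CLCA1 are large mucus proteins, CLCA1 being a metalloprotease that processes mucus. TFF3 (a trefoil peptide), ZG16 (a lectin that binds bacterial wall sugars) and SPINK4 (a Kazal-type protease inhibitor family member) are small secreted proteins. AGR2 is the protein disulfide isomerase of the endoplasmic reticulum needed to make MUC2, and SPDEF is the transcription factor of goblet cell maturation.

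The promoter sequences of 4 of the 8 genes were in the RefSeq table (assembly GRCm38.p6), as 250 bases before and 50 bases after the start. They are shown as a pair whose levels varied together below, Muc2 and Fcgbp, and a second pair, Agr2 and Spdef. Pearson's r of log2 levels between genes of the first and second pair was -0.45 to -0.173 over the 15 libraries. After group means were subtracted it was 0.165 to 0.291. Capitals mark any match, on either strand, to 4 short motifs. CAGCTG is an E-box, the kind of site that basic helix-loop-helix factors bind. TATAAA is the common spelling of a TATA box, and only this exact spelling was marked, at any place in the window. The core read by GATA factors was written as GATAA. For forkhead factors the core TNTTTAC was used. The Muc2 window is chr7:141690090-141690389 on the plus strand. The Fcgbp window is chr7:28070986-28071285 on the plus strand. The Agr2 window is chr12:35992675-35992974 on the plus strand. The Spdef window is chr17:27728902-27729201 and is printed on the minus strand.
Muc2: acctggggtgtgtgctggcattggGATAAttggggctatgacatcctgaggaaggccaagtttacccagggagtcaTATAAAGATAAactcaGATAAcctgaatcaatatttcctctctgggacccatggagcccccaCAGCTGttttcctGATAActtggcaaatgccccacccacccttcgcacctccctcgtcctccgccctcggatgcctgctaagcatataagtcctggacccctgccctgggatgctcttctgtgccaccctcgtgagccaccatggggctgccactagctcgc
Fcgbp: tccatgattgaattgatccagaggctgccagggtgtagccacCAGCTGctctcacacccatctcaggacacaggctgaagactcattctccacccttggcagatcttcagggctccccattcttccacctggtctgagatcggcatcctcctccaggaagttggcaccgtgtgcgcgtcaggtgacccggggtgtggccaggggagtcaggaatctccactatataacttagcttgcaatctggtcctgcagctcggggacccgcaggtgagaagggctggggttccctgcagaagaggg
Agr2: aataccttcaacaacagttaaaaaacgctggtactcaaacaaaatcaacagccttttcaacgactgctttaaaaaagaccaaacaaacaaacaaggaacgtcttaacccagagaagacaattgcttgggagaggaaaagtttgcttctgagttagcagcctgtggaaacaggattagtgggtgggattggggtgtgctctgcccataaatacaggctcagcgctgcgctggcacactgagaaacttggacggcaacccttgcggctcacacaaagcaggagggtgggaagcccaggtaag
Spdef: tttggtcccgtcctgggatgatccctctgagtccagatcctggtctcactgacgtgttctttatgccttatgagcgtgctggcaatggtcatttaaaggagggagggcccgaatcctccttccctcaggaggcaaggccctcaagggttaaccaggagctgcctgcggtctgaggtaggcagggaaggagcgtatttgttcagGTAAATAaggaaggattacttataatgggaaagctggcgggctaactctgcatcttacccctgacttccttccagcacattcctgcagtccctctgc

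The windows of Muc2 and Fcgbp each held 1 CAGCTG, which begins 112 bases before the start of Muc2 and 208 bases before that of Fcgbp. CAGCTG, which is its own reverse complement, was found in 16.3% of the 32851 windows of this length. The Muc2 window also held 1 TATAAA, which begins 174 bases before the start and adjoins a GATAA without overlap, and 4 GATAA in all. Near matches closer to the start, such as tataag in the Muc2 window and tataac in the Fcgbp window, were not marked. Which of these letters, if any, serves as a TATA box was not tested. On both strands together, TATAAA was found in 13.6% of all windows and GATAA in 25.4%. For TNTTTAC the reverse strand reads GTAAANA. The Spdef window held this reverse form, which begins 47 bases before the start, and 12.4% of all windows held either form. None of these letters was in the Agr2 window. A match of letters is a description of the window only.

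On the mm10 build, Muc2 (ENSMUSG00000025515) spans chr7:141690340-141754693 on the plus strand with 7127 bases of exons. Fcgbp (ENSMUSG00000047730) lies on the same chromosome at chr7:28071236-28120862, plus strand, with 10497 bases of exons, the most of the 8. Clca1 (ENSMUSG00000028255) spans chr3:145003817-145032776 on the minus strand with 3777 bases of exons. Muc2, Fcgbp and Clca1 were thus the genes with the longest transcripts in the group. Tff3 (ENSMUSG00000024029, chr17:31125306-31129646, minus strand) has 493 bases of exons, and Spink4 (ENSMUSG00000028415, chr4:40920052-40931395, plus strand) has 477. Zg16 (ENSMUSG00000049350, chr7:127050156-127087328, minus strand) has 1257, Agr2 (ENSMUSG00000020581, chr12:35992907-36004087, plus strand) has 1291, and Spdef (ENSMUSG00000024215, chr17:27714352-27728955, minus strand) has 2305. No exon of the 8 genes overlapped an exon of another gene in GENCODE M21. The annotation behind the authors' counts is not named, so overlaps in it could not be checked. Clca1 belongs to a family of similar neighbouring genes, and the sources used here do not say how reads shared by such genes were assigned.

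The libraries held between 13855034 and 19307079 reads, and all 8 genes were above 10 normalised counts in every library, at between 146.7 counts (Spdef) and 105356.1 counts (Fcgbp). Normalised counts are the authors' read counts divided by a size factor for each library. In WT control, 8 stroma and muscle markers summed to 74 to 366 normalised counts, and 12 enterocyte markers to 849389 to 1181233. In KO ezetimibe these sums were 86 to 206 and 1056380 to 1266341. The libraries thus held little RNA of the stroma and muscle markers. The targeted genes were lower in KO on both diets without overlap with WT. Gramd1c, which encodes Aster-C, was at 1058.9 to 1845.2 normalised counts in WT libraries and at 71.8 to 194 in KO libraries, and Gramd1b, which encodes Aster-B, at 2274.1 to 4045.8 and 961.9 to 2086.4. A library was treated as 1 animal. As separate animals are not stated for each library, the p-values describe spread among libraries, which may be technical.

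Per kilobase of exon, Tff3 and Zg16 had the highest levels of the 8 and Spdef the lowest. The mean over the 15 libraries was 33900 normalised counts per kb for Tff3, rank 14 of the 26825 genes with a known length, and 28330 for Zg16, rank 20. Fcgbp followed at 6308 counts per kb and Clca1 at 5836. Spink4 (2697), Muc2 (2531) and Agr2 (2458) were close together per kb, and Spdef, the only transcription factor of the 8, was at 92.3 and rank 5281. The order depended on the group. In WT control, Fcgbp at 5639 ± 724 per kb (SD, n = 4) and Clca1 at 5707 ± 914 differed by less than either spread, as did Spink4 at 3446 ± 758 and Agr2 at 3081 ± 196 by less than that of Spink4. In KO ezetimibe the per-kb level of Muc2, 3156 ± 663 (SD, n = 4), stood above those of Spink4, 2082 ± 220, and Agr2, 2017 ± 254, which differed by less than their spreads. Together the 8 genes took 1.05% ± 0.080 of all reads in WT control, 1.04% ± 0.049 in KO control, 0.970% ± 0.015 in WT ezetimibe and 1.15% ± 0.099 in KO ezetimibe (SD, n = 4, 3, 4 and 4). The KO ezetimibe libraries lay between 1.03% and 1.27%, and all of them were above the highest WT ezetimibe library, at 0.984%.

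**Figure D1:**
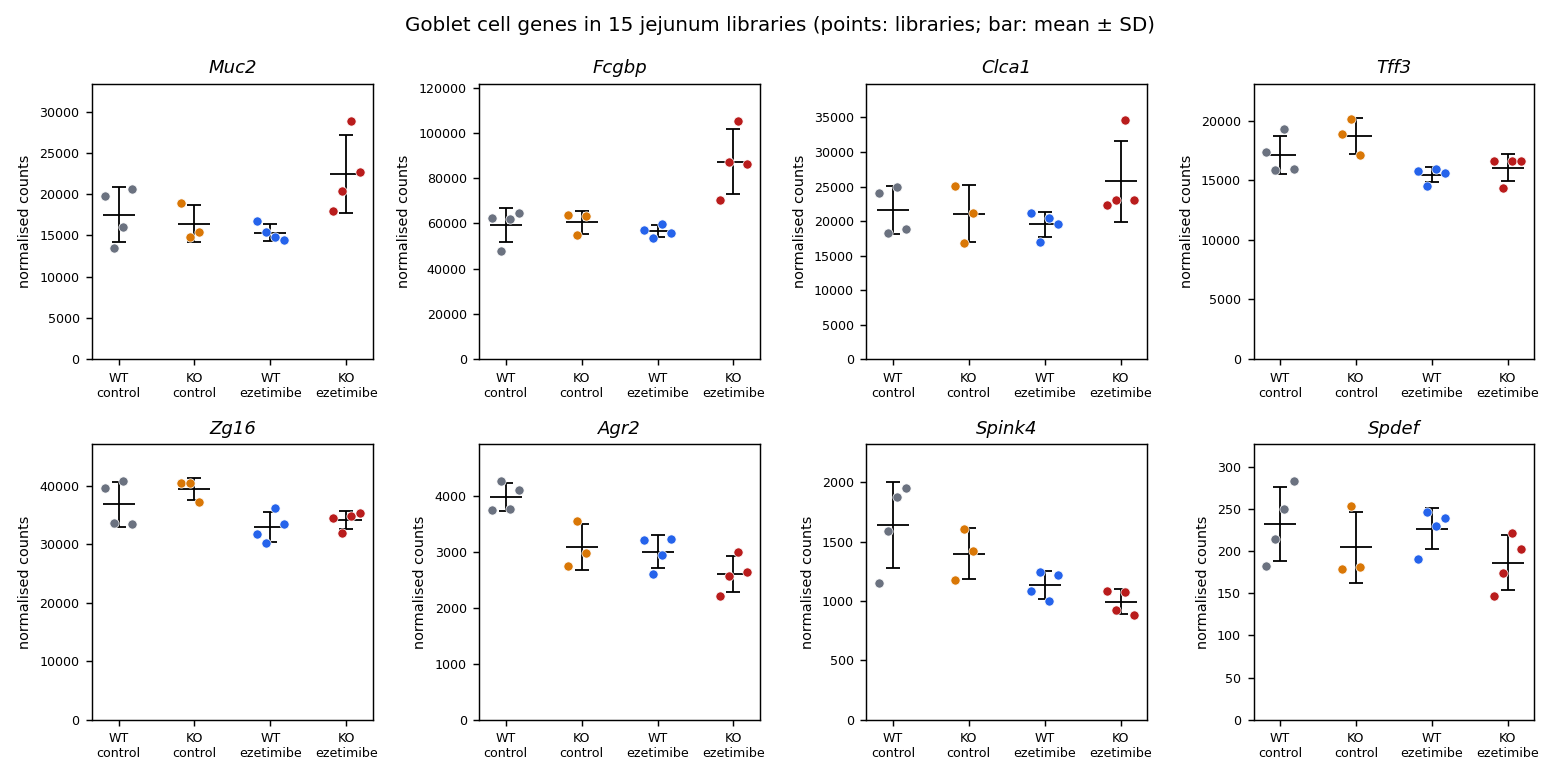
Normalised counts (y axis, from 0) of the 8 goblet cell genes in the 4 genotype and diet groups (x axis), with 1 point per library and the mean ± SD as bars. The KO ezetimibe libraries lie above all WT ezetimibe libraries for Muc2, Fcgbp and Clca1, and overlap them for the other 5 genes.

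The comparison of KO with WT on ezetimibe asks what loss of Aster-B and Aster-C goes with when cholesterol uptake through NPC1L1 is blocked. The mucin gene and both large mucus proteins had higher levels in every KO ezetimibe library than in any WT ezetimibe library. The ratios of the group means were 1.54 for Fcgbp, 1.47 for Muc2 and 1.32 for Clca1. The small secreted proteins Tff3 and Zg16 had nearly equal means in both groups, and Agr2, Spink4 and Spdef had slightly lower means with overlapping libraries. By limma on log2 values, 0 of the 8 genes passed an adjusted p of 0.05, where 0.00699% of all 14299 genes tested did. At an unadjusted p under 0.05, 3 of the 8 were higher (8.15% of all genes) and 0 lower (8.30%). The same 3 genes were higher without overlap of the groups (5.09% of all genes), and 0 were lower without overlap (4.84%). DESeq2, run on the whole reads recovered from the normalised counts, called 1 of the 8, Fcgbp. It called 0.804% of the 10694 genes to which it gave an adjusted p.

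Fcgbp had 57135.5, 53429.7, 59791.8 and 55721.4 normalised counts in the WT ezetimibe libraries. It had 70255.1, 87198.6, 105356.1 and 86030.5 in the KO ezetimibe libraries. Every KO library was above every WT library, replicate 3 was the highest and replicate 1 the lowest of the KO libraries. The limma log2 fold change was 0.61 ± 0.14 (SE, 95% interval 0.31 to 0.91), rank 34 by p of all genes tested, with an adjusted p of 0.204. DESeq2 on the recovered reads gave 0.62 ± 0.13 (SE) with an adjusted p of 0.00113. The authors' deposited table for KO against WT on ezetimibe, which has 72 rows, lists Fcgbp with a log2 fold change of 0.63, a standard error of 0.13 and an adjusted p of 0.00124 from DESeq2. None of the other 7 genes is in the authors' deposited table for ezetimibe, and none of the 8 is in that for the control diet, which has 424 rows. Fcgbp encodes a protein of many repeated von Willebrand domains that is secreted with MUC2.

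Muc2 had 16757.5, 15441.6, 14760 and 14419.6 normalised counts in WT ezetimibe. It had 17927.4, 20352.3, 28941.5 and 22737.1 in KO ezetimibe. The groups did not overlap, but the gap between KO replicate 1 and WT replicate 1 was small beside the spread within KO. The limma log2 fold change was 0.53 ± 0.16 (SE, 95% interval 0.20 to 0.86) with an adjusted p of 0.223, and DESeq2 gave 0.55 with an adjusted p of 0.0583.

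Clca1 had 21204.3, 17003.3, 20369.9 and 19570.6 normalised counts in WT ezetimibe. It had 22326.7, 23066.9, 34586.7 and 23113.1 in KO ezetimibe, where replicate 3 stood far above the other 3 libraries. The limma log2 fold change was 0.38 ± 0.16 (SE, 95% interval 0.03 to 0.73) with an adjusted p of 0.286. The value rested in part on that library. Without it the Clca1 difference was 0.23, while that of Fcgbp was 0.52.

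Tff3 had 15738.5, 14520.4, 15944.8 and 15611.8 normalised counts in WT ezetimibe and 16591.9, 14331.2, 16657.6 and 16635.8 in KO ezetimibe. The groups overlapped through KO replicate 2, the lowest of the 8 libraries on that diet. The limma log2 fold change of Tff3 was 0.05 ± 0.10 (SE) with a 95% interval of -0.15 to 0.26 and an adjusted p of 0.793. Zg16 had 31849.8, 30255, 36199.6 and 33500 in WT ezetimibe and 34549.2, 31875.5, 34880.9 and 35312.5 in KO ezetimibe. Its libraries were mixed, with a log2 fold change of 0.05 ± 0.11 (limma, SE) and an interval of -0.17 to 0.28 (adjusted p = 0.813). Both values had the opposite sign under quantile scaling (-0.17 for Tff3 and -0.16 for Zg16).

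Agr2, Spink4 and Spdef had lower means in KO ezetimibe and did not pass the test. Agr2 had 3215.5, 2601.1, 2950.7 and 3231.9 normalised counts in WT ezetimibe and 2207.2, 2565.6, 3006.5 and 2636.3 in KO ezetimibe, with a limma log2 fold change of -0.21 ± 0.11 (SE, adjusted p = 0.331). Spink4 had 1085.6, 1244.2, 996.1 and 1222.8 in WT ezetimibe and 1085.9, 922, 1080 and 884.1 in KO ezetimibe, a limma difference of -0.20 ± 0.15 (SE, adjusted p = 0.496). Both genes had overlapping groups. Spdef had 191.1, 246, 229.2 and 238.6 in WT ezetimibe and 146.7, 173.7, 221.8 and 202.4 in KO ezetimibe, a limma difference of -0.29 ± 0.17 (SE, adjusted p = 0.364). The maturation factor thus had the lower mean in the group where the mucin gene had the higher one, with overlapping libraries.

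Other measurements moved with the higher levels of Fcgbp, Muc2 and Clca1 in KO ezetimibe. All 12 of 12 enterocyte markers had positive limma log2 fold changes (median 0.29), and 7 of 9 genes of a general epithelial list (median 0.30), against a median of -0.0018 over all genes. The summed level of the epithelial list was 265844 to 306149 normalised counts in WT ezetimibe and 314640 to 428941 in KO ezetimibe, without overlap, and that of the enterocyte list was 851437 to 1018868 and 1056380 to 1266341. limma called 0 genes of both lists, and no gene of either was at 0 in all 15 libraries. Scaling each library to the epithelial list moved the median of all genes by -0.19 and left limma log2 differences of 0.43 for Fcgbp, 0.35 for Muc2 and 0.19 for Clca1. With quantile scaling these were 0.35, 0.33 and 0.19. Markers of T and NK cells, proliferation, myeloid cells and Paneth cells had lower levels in the same comparison, and limma called 0 of them. All 12 of 12 T and NK cell markers had negative differences (median -0.54), with summed levels of 6732 to 9227 normalised counts in WT ezetimibe and 5002 to 6817 in KO ezetimibe. So did all 14 of 14 proliferation genes (median -0.67), all 9 of 9 tested myeloid markers (median -0.63, summed level of the list 503 to 819 and 221 to 495) and all 9 of 9 Paneth cell markers (median -0.67). Other lists were mixed. Positive differences were found for 4 of 6 tested tuft cell markers (median 0.14) and 4 of 8 stroma and muscle markers (median 0.10). They were also found for 2 of 7 stem cell markers, 3 of 10 enteroendocrine markers and 1 of 7 tested B and plasma cell markers. Beyond these values the part of cell content in the result was not tested.

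Transcript length moved with the result too. In KO against WT on ezetimibe, the median limma log2 fold change was -0.064 over the 1049 genes with up to 1 kb of exons and 0.083 over the 692 genes with more than 12 kb. The genes with 8 to 12 kb, among them Fcgbp, had a median of 0.058, and those with 4 to 8 kb, among them Muc2, one of 0.0094. Fcgbp, Muc2 and Clca1 stood well above the median of their length class. After a smooth trend with length was taken out of each library, the limma log2 differences were 0.60 for Fcgbp, 0.55 for Muc2 and 0.44 for Clca1, and 0.16 for Tff3 and 0.13 for Zg16. That step also moved the median of all genes from -0.0018 to 0.044.

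**Figure D2:**
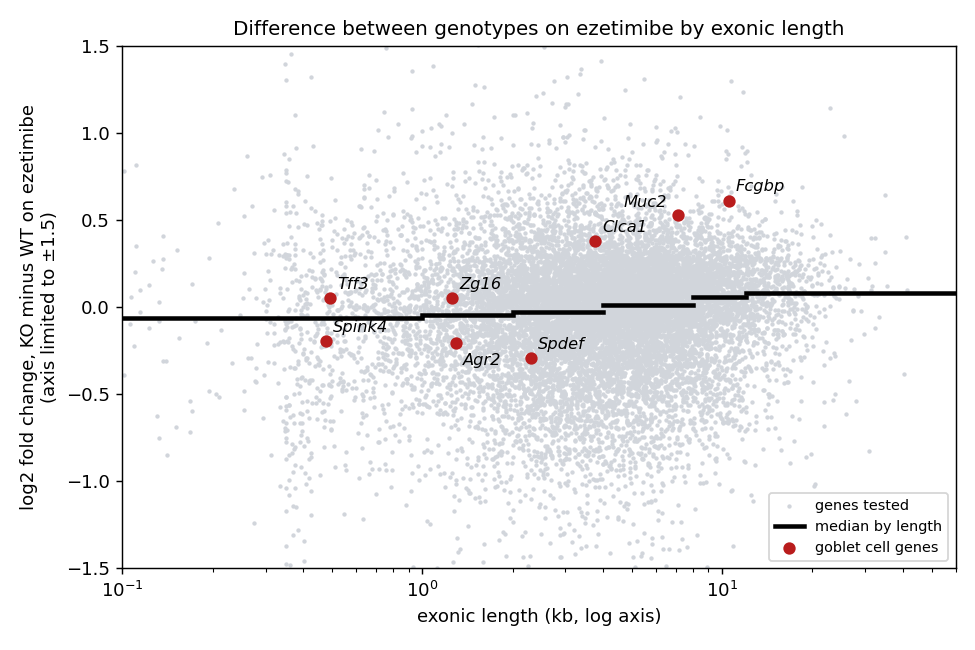
limma log2 fold change of KO against WT on ezetimibe (y axis) against exonic length in kb (x axis, log scale), with all genes tested in grey, the median of each length class as a black line and the 8 goblet cell genes in red. The y axis stops at 1.5 in each direction, which leaves 83 genes outside. Fcgbp, Muc2 and Clca1 lie above the line, and Agr2, Spink4 and Spdef below it.

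The comparison of ezetimibe with the control diet in KO shares the KO ezetimibe libraries with the comparison above, so it is not independent of it. Fcgbp had higher levels on ezetimibe, Muc2 and Clca1 had higher means with overlapping libraries, and the 5 other genes had lower means. By limma 0 of the 8 genes were called, where 0.727% of all genes were. At an unadjusted p under 0.05, 2 of the 8 were higher (11.8% of all genes) and 3 lower (11.2%). Without overlap of the groups, 1 was higher (8.64% of all genes) and 3 were lower (9.38%). DESeq2 on recovered reads called 2 of the 8, Fcgbp higher and Spink4 lower, where it called 10.3% of the 11247 genes with an adjusted p.

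Fcgbp had 63751.3, 54707.7 and 63118.2 normalised counts in KO control, all below the 4 KO ezetimibe libraries. The limma log2 fold change with ezetimibe was 0.52 ± 0.15 (SE, 95% interval 0.19 to 0.84), adjusted p = 0.0773, and DESeq2 gave 0.53 ± 0.14 (SE) with an adjusted p of 0.00542. With quantile scaling the limma value was 0.26. Muc2 had 18983.7, 14783.6 and 15450.5 in KO control, of which replicate 1 lay within the range of KO ezetimibe, and its limma log2 fold change was 0.44 ± 0.17 (SE, adjusted p = 0.142), or 0.29 with quantile scaling. Clca1 had 25137.9, 16872.9 and 21178 in KO control, again with replicate 1 inside the KO ezetimibe range, and a difference of 0.28 ± 0.18 by limma (SE, adjusted p = 0.343).

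Spink4 had 1174.4, 1605.2 and 1418.9 normalised counts in KO control and at most 1085.9 in KO ezetimibe, so the groups did not overlap. Its limma log2 fold change was -0.49 ± 0.16 (SE, 95% interval -0.83 to -0.14), adjusted p = 0.101, and DESeq2 gave -0.49 ± 0.17 (SE) with an adjusted p of 0.0453. Spink4 has short exons, and after the trend with length was taken out its difference was -0.28 (adjusted p = 0.378, limma). Tff3 had 18919.6, 20131.3 and 17087.1 in KO control, all above the 4 KO ezetimibe libraries by a small margin, with a limma log2 fold change of -0.22 ± 0.10 (SE, adjusted p = 0.216) that came to -0.015 after the length trend was taken out. Zg16 had 40509.2, 40537.6 and 37276.3 in KO control, also without overlap, and a difference of -0.21 ± 0.11 by limma (SE, adjusted p = 0.284), or -0.10 without the length trend. Agr2 had 2755.3, 3550.7 and 2974.2 in KO control, which overlapped KO ezetimibe, with a limma difference of -0.25 ± 0.12 (SE, adjusted p = 0.218). Spdef, at 178.5, 253.4 and 180.9 in KO control, differed by -0.13 ± 0.18 (limma, SE, adjusted p = 0.698).

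The trend with length was steeper here than in the other 3 comparisons of groups. The median limma log2 fold change of ezetimibe against control in KO was -0.17 over genes with up to 1 kb of exons and 0.22 over those with more than 12 kb. In KO against WT on the control diet it had the opposite slope, from 0.062 to -0.12. Of the 15 libraries, KO control replicate 2 had the most negative rank correlation between a gene's deviation and its length (-0.31) and KO ezetimibe replicate 2 the most positive (0.18). After the length trend was taken out, the difference of Fcgbp with ezetimibe in KO was 0.36 and that of Muc2 was 0.35 (limma, adjusted p = 0.208 and 0.272). Beyond these values the part of length in the result was not tested.

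Whether the difference between genotypes changed with diet was tested as an interaction, the KO minus WT difference on ezetimibe less that on the control diet. Muc2 and Fcgbp had the largest values of the 8. By limma 0 of the 8 genes were called, as were 0.00% of all genes. At an unadjusted p under 0.05, 2 of the 8 were positive (3.87% of all genes) and 0 negative (3.15%). DESeq2 called 0 of the 8, where it called 0.0350% of the 14288 genes with an adjusted p. The interaction of Muc2 was 0.61 ± 0.23 on the log2 scale (limma, SE, 95% interval 0.12 to 1.10) and that of Fcgbp 0.57 ± 0.21 (interval 0.13 to 1.01), each with an adjusted p of 0.681. For Clca1 it was 0.42 ± 0.24 (SE, limma adjusted p = 0.702). The other 5 genes had interactions between -0.11 (Spdef) and 0.16 (Agr2).

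**Figure D3:**
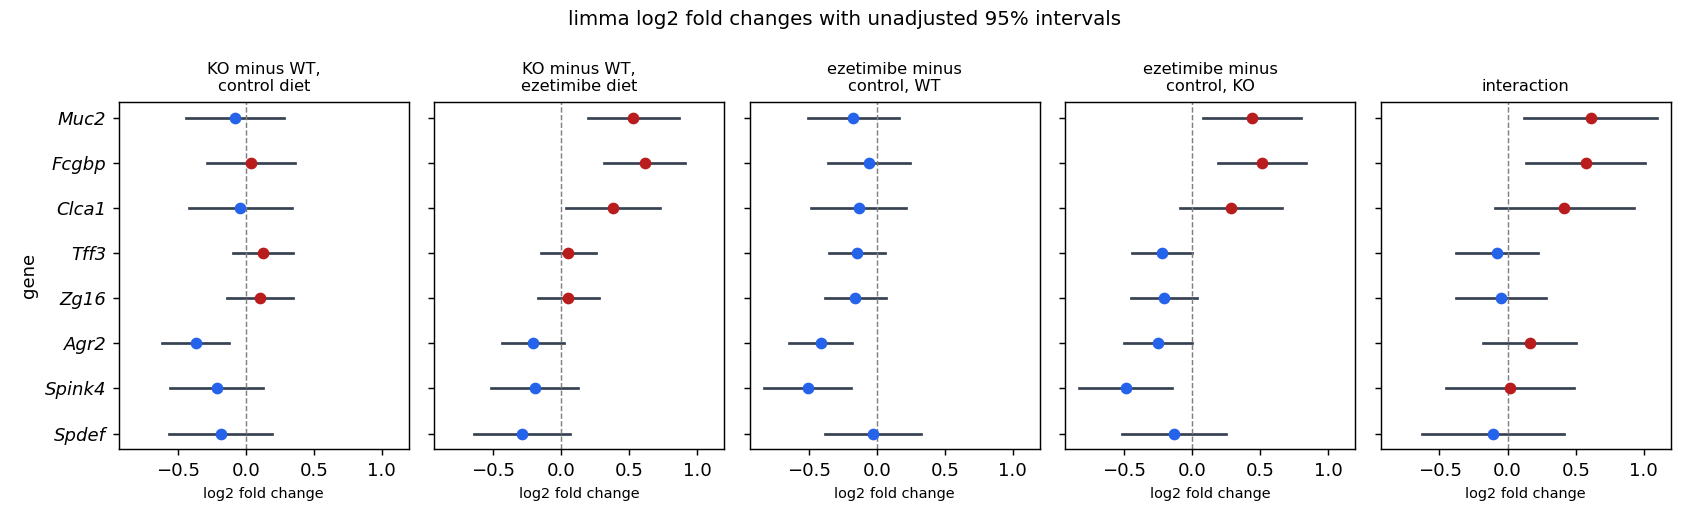
limma log2 fold changes of the 8 goblet cell genes (x axis) in the 4 comparisons of groups and the interaction, with 1 row per gene, unadjusted 95% intervals as lines, and positive values in red and negative ones in blue. Intervals of Muc2, Fcgbp and Clca1 lie above 0 for KO minus WT on ezetimibe, while those of all genes except Agr2 cross 0 for KO minus WT on the control diet.

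On the control diet, KO and WT were close for the mucin and mucus protein genes, and Agr2 was the 1 gene of the 8 that was lower without overlap. By limma 0 of the 8 genes were called, where 0.371% of all genes were. At an unadjusted p under 0.05, 0 were higher (6.87% of all genes) and 1 was lower (7.86%). Without overlap of the groups, 0 were higher (6.59%) and 1 was lower (5.57%). DESeq2 called 0 of the 8, against 3.43% of the 12903 genes with an adjusted p.

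Agr2 had 3756.5, 4271.1, 3774.9 and 4106.2 normalised counts in WT control, and KO control lay between 2755.3 and 3550.7, a ratio of means of 0.778. All 3 KO libraries were below all 4 WT libraries. The limma log2 fold change was -0.37 ± 0.12 (SE, 95% interval -0.62 to -0.12), adjusted p = 0.156, and DESeq2 gave -0.37 with an adjusted p of 0.0718. AGR2 binds mucin precursors in the endoplasmic reticulum, and these data hold RNA and no protein. The Muc2 RNA levels overlapped, at 19811.1, 13508.2, 16006.1 and 20647.3 in WT control against 14783.6 to 18983.7 in KO control. The Muc2 difference was -0.08 ± 0.17 by limma (SE, 95% interval -0.44 to 0.28, adjusted p = 0.881). Fcgbp had 62461.4, 47941.6, 61741.4 and 64613.4 in WT control, which enclosed the KO control libraries, with a difference of 0.04 ± 0.15 (limma, SE, interval -0.29 to 0.36, adjusted p = 0.945).

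Of the small secreted proteins, Tff3 and Zg16 had slightly higher means in KO control than in WT control, and Spink4 had a lower one. Tff3 had 17339.9, 15868.5, 19325.6 and 15956.2 in WT control and a limma difference of 0.13 ± 0.10 (SE, adjusted p = 0.605). Zg16 had 39563.1, 33585.2, 40793.1 and 33424.5 in WT control and a limma difference of 0.10 ± 0.11 (SE, adjusted p = 0.728). Both overlapped, as did Clca1, which had 24087.1, 18303.3, 24958 and 18868.3 in WT control and a limma difference of -0.04 ± 0.18 (SE, adjusted p = 0.952). Spink4 had 1155.4, 1587.5, 1879.2 and 1952.2 in WT control, the widest spread of the 8 genes in that group relative to its mean, and a limma difference of -0.21 ± 0.16 (SE, adjusted p = 0.583). Spdef had 182.4, 214.3, 249.3 and 283.3 in WT control and a limma difference of -0.18 ± 0.18 (SE, adjusted p = 0.684).

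In WT mice, all 8 genes had lower means on ezetimibe than on the control diet, by little for most. By limma 0 of the 8 genes were called, where 0.217% of all genes were. At an unadjusted p under 0.05, 0 were higher (3.14% of all genes) and 2 were lower (1.94%), and without overlap of the groups 0 were higher (2.26%) and 1 was lower (1.21%). DESeq2 called 0 of the 8, against 0.744% of the 12627 genes with an adjusted p. Agr2 was the gene without overlap, at 3756.5 to 4271.1 normalised counts in WT control against 2601.1 to 3231.9 in WT ezetimibe. Its ratio of means was 0.754 and its limma log2 fold change -0.41 ± 0.11 (SE, 95% interval -0.64 to -0.18), adjusted p = 0.271, with a DESeq2 adjusted p of 0.0532. Agr2 thus had its highest libraries in WT control, above every library of the other 3 groups. Spink4 had a limma difference of -0.51 ± 0.15 (SE, 95% interval -0.83 to -0.19), adjusted p = 0.411, and overlapped only through WT control replicate 1, at 1155.4. Without that library the Spink4 difference was -0.67 with an adjusted p of 0.0448 by limma. For the other 6 genes the limma differences lay between -0.17 (Muc2) and -0.03 (Spdef), each with an adjusted p of 0.999.

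Markers of some other cell types were also lower where Agr2 was lower, and those of T and NK cells were not so in both comparisons. All 9 of 9 Paneth cell markers had negative limma differences in KO against WT on the control diet (median -1.70) and in ezetimibe against control in WT (median -1.12), and 0 were called in either. Their summed level was 19091 to 65728 normalised counts in WT control, 10028 to 17114 in KO control, 9000 to 38192 in WT ezetimibe and 8312 to 14454 in KO ezetimibe. All 14 of 14 proliferation genes also had negative differences in KO against WT on the control diet (median -1.39). There limma called 5 of them lower, Mki67, Bub1, Aspm, Knl1 and Anln, where it called 0.371% of all genes. For ezetimibe against control in WT, 1 of the 14 was positive (median -0.30) and 0 were called. The summed level of the proliferation genes was 1686 to 4117 in WT control and 729 to 1359 in KO control. It was 1756 to 2612 in WT ezetimibe and 1192 to 1661 in KO ezetimibe. No gene of the Paneth cell or proliferation list was at 0 in all 15 libraries. Of 7 stem cell markers, 0 were positive in KO against WT on the control diet (median -0.61). For ezetimibe in WT 1 was positive (median -0.38). Of 12 T and NK cell markers, 0 were positive in the first comparison (median -0.61) and 12 in the second (median 0.47). The part of these cell types in the Agr2 levels was not tested.

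By other count tests, no member was called in any of the 5 comparisons with edgeR or limma-voom on the recovered reads. edgeR called 0.0839% of all genes between genotypes on the control diet, 0.00699% on ezetimibe, 0.238% and 0.678% for ezetimibe in WT and KO, and 0.00% for the interaction. limma-voom called 0.0699%, 0.00699%, 0.182%, 0.287% and 0.00% in that order. DESeq2 without a filter on low counts called the same members as with it. Its shares were 3.19%, 0.613%, 0.728%, 9.45% and 0.0112% of the genes to which it gave an adjusted p.

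Because counts of 1 library share a size factor, the ratio of 2 genes within a library does not depend on it. The ratio of Tff3 to Zg16 was nearly constant, at 0.465 ± 0.018 in WT control, 0.474 ± 0.020 in KO control, 0.470 ± 0.023 in WT ezetimibe and 0.470 ± 0.014 in KO ezetimibe (SD, n = 4, 3, 4 and 4). Over all 15 libraries it stayed between 0.438 and 0.497. The ratio of Muc2 to Fcgbp was 0.294 ± 0.029, 0.271 ± 0.027, 0.272 ± 0.023 and 0.257 ± 0.018 in the same groups. Ratios across these pairs differed by group. Fcgbp to Zg16 was 1.794, 1.766, 1.652 and 1.663 in WT ezetimibe and 2.033, 2.736, 3.020 and 2.436 in KO ezetimibe. All KO ezetimibe ratios of Fcgbp to Zg16 were above those of the other 11 libraries, of which the highest was 1.933 in WT control. Muc2 to Tff3 was 1.065, 1.063, 0.926 and 0.924 in WT ezetimibe and 1.08, 1.420, 1.737 and 1.367 in KO ezetimibe, without overlap, while WT control reached 1.294. Both ratios set a longer transcript over a shorter one, with 10497 against 1257 bases of exons and 7127 against 493. The trend with length was not taken out of these ratios, and the share of other gene pairs that separate likewise was not computed.

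**Figure D4:**
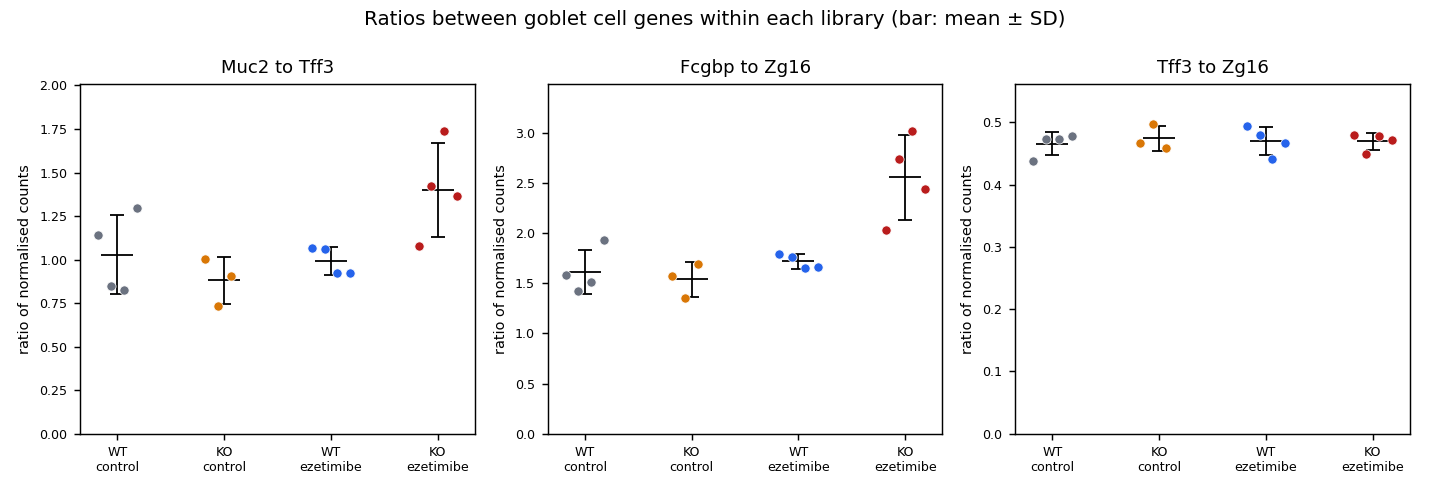
Ratio of the normalised counts of a pair of goblet cell genes in the same library (y axis, from 0) in the 4 groups (x axis), with 1 point per library and the mean ± SD as bars. Fcgbp to Zg16 is higher in all 4 KO ezetimibe libraries than in any other library, and Tff3 to Zg16 stays between 0.438 and 0.497.

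Across the 15 libraries, the closest pairs of the 8 genes were Tff3 with Zg16 and Muc2 with Fcgbp. Each correlation is of log2 levels over the 15 libraries, which share groups, depth and size factors, and is given as a description. Tff3 and Zg16 had a Pearson r of 0.93 (Spearman rho 0.92), and 0.85 after group means were subtracted. Muc2 and Fcgbp had an r of 0.90 (rho 0.88), and 0.85 after group means were subtracted. Clca1 was most like Fcgbp (r = 0.78, rho 0.70). Between these pairs r was near 0, at -0.04 for Muc2 and Tff3 and -0.04 for Fcgbp and Zg16. Clca1 lay between them, with an r of 0.26 with Zg16 that was 0.50 after group means were subtracted, and 0.18 and 0.38 with Tff3. After the length trend was taken out, r was 0.51 for Muc2 and Tff3 and 0.41 for Fcgbp and Zg16, so the pairs were less separate without that trend, while Muc2 and Fcgbp kept 0.90 and Tff3 and Zg16 had 0.84. Agr2 and Spink4 had an r of 0.73 (rho 0.66) that was 0.23 after group means were subtracted. Spink4 and Spdef had 0.59 and 0.61 in turn. Without the 2 libraries farthest from the median, r was 0.91 for Tff3 and Zg16, 0.76 for Muc2 and Fcgbp, and 0.35 for Spink4 and Spdef. Without such libraries Clca1 was closer to Zg16 (r = 0.73) than to Fcgbp (r = 0.57).

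**Figure D5:**
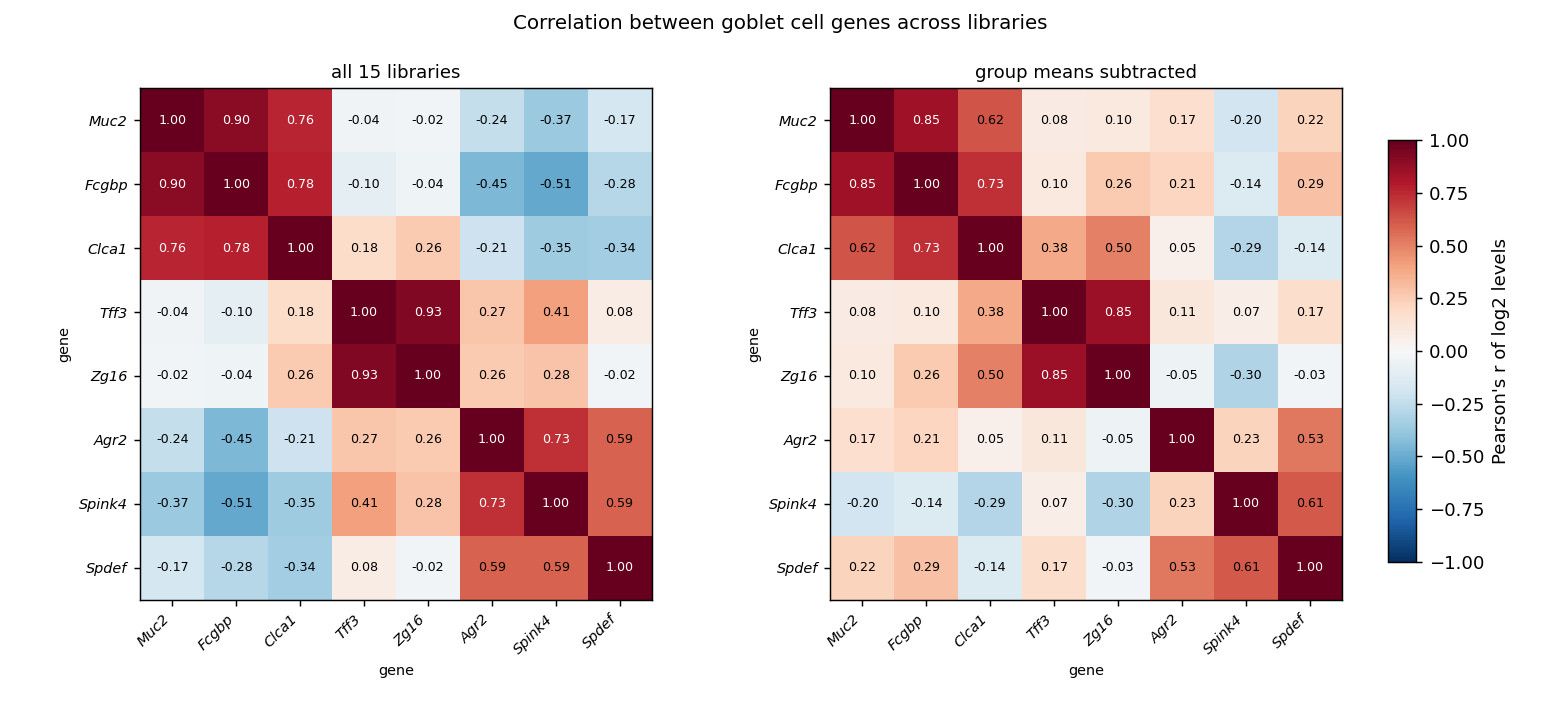
Pearson's r between log2 levels of each pair of goblet cell genes (both axes) over the 15 libraries, as measured on the left and after group means were subtracted on the right, with colour and printed value giving r. Tff3 with Zg16 and Muc2 with Fcgbp have the highest values in both panels, and Clca1 has 0.50 with Zg16 on the right.

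Of all tested genes outside the 8, those most like the mean standardised level of the group over the 15 libraries included 4931428F04Rik (r = 0.85), Serpinb6a (0.82), Ube2f (0.82), Ppp2ca (0.81), S100a11 (0.78), Kcmf1 (0.78), S100a14 (0.78), Ifrd1 (0.77) and Cnot6 (0.77). After group means were subtracted, the 10 most alike were Apobec1 (r = 0.88), Tinagl1 (0.86), C2cd2l (0.85), Trp53inp2 (0.85), Nsmf (0.85), Myh14 (0.85), Ppp1r15b (0.85), Mst1r (0.84), Pold4 (0.84) and Cep170b (0.84). The mean level of 4931428F04Rik was 8.35 normalised counts, so its values rest on few reads.

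Around the 8 genes, a wider list of goblet cell genes covered transcription, protein folding, mucin glycosylation, granules and secretion, other products, and proteases of the barrier. Of its 69 genes, 64 were in the table and 58 could be tested. By limma 0 of the 58 were called in any of the 5 comparisons. At an unadjusted p under 0.05, 1 was higher and 8 were lower in KO against WT on the control diet (6.87% and 7.86% of all genes), and 3 were higher and 1 was lower on ezetimibe (8.15% and 8.30%). With ezetimibe, 1 was higher and 7 were lower in WT (3.14% and 1.94% of all genes), and 9 were higher and 1 was lower in KO (11.8% and 11.2%). The interaction had 4 positive and 0 negative (3.87% and 3.15%). The median limma log2 differences of the 58 were -0.061, 0.0026, -0.074 and -0.086 in that order, beside -0.0054, -0.0018, -0.0096 and 0.0056 over all genes. DESeq2 called 0 of the 58 except in ezetimibe against control in KO. There it called 2, Klf4 and Ern2, against 10.3% of the 11247 genes with an adjusted p.

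Among the 10 transcription factors of the list, Klf4, which is needed for goblet cell differentiation in the colon, had the pattern of the mucin genes. Most of the 10 did not. In KO against WT on ezetimibe 2 of the 10 had positive limma differences (median -0.059), and for ezetimibe in KO 3 did (median -0.10). Klf4 was at 5282.3 ± 149.3 normalised counts in WT ezetimibe and 7130.9 ± 898.2 in KO ezetimibe (SD, n = 4 each) without overlap. Its limma log2 difference was 0.42 ± 0.14 (SE, adjusted p = 0.237). Against KO control, at 4935.7 ± 203.3 (SD, n = 3), Klf4 had a difference of 0.52 ± 0.15 (SE, limma adjusted p = 0.0774, DESeq2 adjusted p = 0.0197). Creb3l4, a membrane-bound factor of the secretory pathway, was lower without overlap in KO control, at 46.6 ± 7.3 (SD, n = 3) against 69.9 ± 7.0 (SD, n = 4), a difference of -0.58 ± 0.19 (SE, limma adjusted p = 0.162). Gfi1, which acts in secretory lineage choice, had limma differences of -0.51 ± 0.23 (SE, adjusted p = 0.323) in KO against WT on the control diet and 0.53 ± 0.23 (SE, adjusted p = 0.183) for ezetimibe in KO.

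Ern2 encodes IRE1-beta, the stress sensor of the endoplasmic reticulum in mucus-producing cells. It was at 155.5 ± 25.6 normalised counts in WT control, 117.0 ± 22.9 in KO control, 145.8 ± 6.6 in WT ezetimibe and 164.7 ± 22.1 in KO ezetimibe (SD, n = 4, 3, 4 and 4). Ern2 was thus lowest in KO control, with limma log2 differences of -0.41 ± 0.16 against WT control (SE, adjusted p = 0.240) and 0.50 ± 0.16 for ezetimibe in KO (SE, adjusted p = 0.0931, DESeq2 adjusted p = 0.0481), both without overlap. In granules and secretion, Tspan1, a tetraspanin, differed by -0.52 ± 0.14 (SE) with ezetimibe in WT without overlap (limma adjusted p = 0.375), and the calpain Capn9 by -0.31 ± 0.10 (SE, limma adjusted p = 0.508). Among glycosylation genes, Galnt12, which starts O-glycan chains, differed by -0.32 ± 0.09 (SE) with ezetimibe in WT (limma adjusted p = 0.380), and B4galnt2, which adds a terminal sugar, by 0.39 ± 0.15 (SE) in KO against WT on ezetimibe (limma adjusted p = 0.260). Itln1, a lectin also made by Paneth cells, had the lowest value of the list, -1.39 ± 0.42 (SE) in KO against WT on the control diet (limma adjusted p = 0.131), at 1757.7 ± 438.0 against 5030.8 ± 2615 normalised counts (SD, n = 3 and 4).

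Outside that list, genes for cytokines that act on goblet cells and their receptors numbered 10, of which 6 could be tested, and none was called. Il22ra1, the epithelial receptor chain for IL-22, had the highest of these values for ezetimibe in KO, 1.09 ± 0.27 (SE, limma adjusted p = 0.0553, higher without overlap). Il13ra1, a receptor chain for IL-13, was higher without overlap with 0.55 ± 0.17 (SE, limma adjusted p = 0.0798), and Il18 was lower without overlap with -1.12 ± 0.25 (SE, limma adjusted p = 0.0521). Of 7 membrane mucins, which are made mainly by enterocytes, 5 could be tested and 0 were called. Muc13 and Muc3a were higher without overlap for ezetimibe in KO by 0.40 ± 0.16 (SE, limma adjusted p = 0.153) and 0.31 (limma adjusted p = 0.142). In that comparison 8.64% of all genes were higher and 9.38% were lower without overlap. Of 10 genes of Notch signalling, which holds back secretory fate, 8 could be tested. The receptor gene Notch1 fell in KO against WT on the control diet, with a log2 difference of -1.30 ± 0.21 (SE, limma adjusted p = 0.0296). It was the only call of that list in the 5 comparisons, where limma called 0.371% of all genes on the control diet.

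Immune cell markers moved with the diet beside the Fcgbp and Spink4 differences in KO. For ezetimibe against control in KO, all 12 of 12 T and NK cell markers had positive limma log2 differences (median 0.53) and 8 of 9 tested myeloid markers had negative ones (median -1.49). Of these, limma called 1 (0.727% of all genes), the complement gene C1qc of macrophages, with a log2 difference of -1.77 ± 0.38 (SE, adjusted p = 0.0479). Their summed levels were 3644 to 4859 normalised counts in KO control and 5002 to 6817 in KO ezetimibe for the T and NK list, and 730 to 995 and 221 to 495 for the myeloid list. Of other secretory cells, all 6 tested tuft cell markers had positive differences (median 0.28), 8 of 9 Paneth cell markers negative ones (median -0.15) and 7 of 10 enteroendocrine markers negative ones (median -0.11). The part of these cells in the goblet cell gene levels was not tested.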

How the data were processed

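Per the labels' protocols, TRIzol RNA was turned into sequencing libraries with NEBNext Ultra II reagents. The submitters' processing notes name the tools FastQC, STAR 2.6.0c and DESeq2 and the build mm10. The sources used here name no read counter, annotation or strand setting.

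The authors deposited a signal per gene and library, read counts normalised by DESeq2, per the file headers. Dividing by the smallest step in each library gave whole reads for 100% of values (tolerance 0.01 reads), and these sums are the depths. The authors' deposited tables of KO against WT hold, per the file headers, a mean signal, log2 changes and their standard errors, a Wald score, raw and adjusted p-values and a fold change (ratio), and served only where named.

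Log2(value + 1) was tested with limma 3.58.1 (trend option) as the main test, with 4 group means over all 15 libraries, for the 14299 genes with at least 10 in at least 3 libraries. Benjamini-Hochberg adjustment was over all of them, and called means an adjusted p under 0.05. The scale understates changes of low genes. Count tests on the recovered reads (edgeR 4.0.16, DESeq2 1.42.0, limma-voom) were alternatives, with other pseudocounts (0.5 and 5), filters (none, or a mean of at least 50), scalings, the compared groups alone, robust moderation, a replicate block and each library left out. Length detrending (loess, span 0.5) and DESeq2 without a filter were chosen after seeing the data. Code was tested on simulated data. In R 4.3.3, no pair of replicates agreed within sampling noise.

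The members and gene lists were chosen with earlier results of these data known. Named beyond the 8 members were called genes and those with the smallest p of each list, and the 10 genes most like the members, of which 1 is not reported here. Gene models were GENCODE M21, with 26825 of 26844 identifiers matched. Figures were drawn with matplotlib 3.10.9.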

Additional observations from a re-analysis of the deposited data

Results flagged for a closer look

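Of the 24 sets of 4 libraries examined for a library apart from the rest of its group, 2 held one, and chance gives about 1 in 20. Tff3 was at 14331.2 normalised counts in KO ezetimibe replicate 2, while the other 3 libraries of that group lay between 16591.9 and 16657.6. Clca1 was at 34586.7 in KO ezetimibe replicate 3, while the other 3 lay between 22326.7 and 23113.1. KO control, with 3 libraries, was not examined in this way.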

How the results depend on the processing

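Of 1192 values recomputed under 30 alternative settings, 1153 kept their direction and their side of the threshold, and 31 changed sign. Another 8 passed the threshold where the reported value did not. No value could lose a call, because the main test called 0 of the 8 genes in every comparison. Members called went from 0 to 1 in KO against WT on ezetimibe with DESeq2 (with or without the filter), and for ezetimibe in KO to 2 with DESeq2 (either way) and to 1 with the replicate block (Fcgbp, adjusted p = 0.0374 by limma). Leaving out each library gave 0 to 1 members called for ezetimibe in WT (1 without WT control replicate 1, Spink4). Of the wider list, calls for ezetimibe in KO went from 0 to 3 with the replicate block, to 2 with DESeq2, to 1 with DESeq2 without a filter and to 0 to 1 with a library left out (1 without KO ezetimibe replicate 4, Klf4), and in KO against WT on the control diet from 0 to 1 with the block (Itln1). The cause was not tested.

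Same-numbered libraries had correlations of deviations between -0.242 and 0.331 over 21 pairs, 12 of them over 0.1, and 8 of 15 libraries were most like their own number. The labels do not say that the numbers pair libraries, and the main test did not use them. Whether same-numbered libraries shared a step of the work was not tested. With the block, genes called between genotypes went from 53 to 231 on the control diet and from 1 to 6 on ezetimibe. For ezetimibe they went from 31 to 54 in WT and from 104 to 1915 in KO, and the interaction stayed at 0. The number of genes called thus depended on this choice.

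Signs that changed belonged to small log2 differences. With length detrending, KO against WT on the control diet came to 0.0358 for Muc2 and 0.0147 for Clca1, and the interaction of Zg16 to 0.0329. Detrending moved the median of all genes in that control-diet comparison from -0.0054 to 0.070, above the values of Muc2 and Clca1. With quantile scaling, KO against WT on ezetimibe came to -0.17 for Tff3 and -0.16 for Zg16, and the interaction of Spink4 to -0.00827. With epithelial scaling these were -0.13, -0.13 and -0.14, and ezetimibe in WT came to 0.0181 for Spdef. The replicate block gave -0.00643 for the interaction of Spink4. With each library left out, KO against WT on the control diet ranged from -0.20 to 0.00588 for Muc2, -0.18 to 0.11 for Clca1 and -0.0596 to 0.11 for Fcgbp. Spdef ranged from -0.13 to 0.0759 for ezetimibe in WT, -0.22 to 0.0333 in KO and -0.21 to 0.0587 for the interaction, and the interaction of Spink4 from -0.10 to 0.18. With 3 or 4 libraries a group, differences as small as those of Tff3 and Zg16 were within the error.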
